A study of Mus musculus with 18 samples.

Results

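Small RNAs cut from the interior or the 3′ end of tRNAs were examined in mouse lung. They were every row of the tRNA-derived small RNA (tsRNA) table that the authors had typed as tRF-2, tRF-3a, tRF-3b or tiRNA-3. The parent tRNA and the measured values did not enter this rule, but it was set with earlier results of these data known. Every listed tsRNA also reached at least 20 CPM (counts scaled to mapped reads, below) in some library. The rule gave 23 of the 193 listed tsRNAs, of which 6 were tRF-2, 11 tRF-3a, 3 tRF-3b and 3 tiRNA-3. Of the other listed tsRNAs, 143 were 5′ fragments and 27 were trailers of tRNA precursors (tRF-1).

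Lung RNA came from 3 groups of mice with 3 libraries each. Control mice and mice of the COPD model (chronic obstructive pulmonary disease) received phosphate-buffered saline, and BMSC-treated mice received 4000000 BMSCs in 100 µl of it through the tail vein. The COPD model combined exposure to cigarette smoke with cigarette smoke extract injected into the peritoneum, and per the series design the treated mice were model mice given mesenchymal stem cells. The strain, the sex and age of the mice, the source of the cells and the length of exposure were not given in the sources used here. Since the labels do not tie libraries to single mice, the p-values measure the spread between these libraries, which may be technical.

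A tRNA folds into a clover leaf with a D arm, an anticodon arm, a T arm and an acceptor stem, and an enzyme adds the bases CCA to its 3′ end, where the amino acid is attached. Enzymes such as angiogenin cut mature tRNAs in the anticodon loop and leave long fragments called tiRNAs, of which tiRNA-3 is the 3′ product. Cuts in the T arm leave short 3′ fragments, tRF-3a and the longer tRF-3b, and fragments from the interior that keep neither end of the tRNA are tRF-2. Some 3′ fragments have been found bound to Argonaute proteins and some are complementary to the primer binding sites of retroelements, whereas little is known of most interior fragments.

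The fragments came from 2 sets of tRNAs. Of the 23, 11 were mitochondrial, and 8 of these came from a single tRNA, mitochondrial tRNA-His with anticodon GTG, which inserts histidine into the proteins of the respiratory chain. Its gene, TrnH, lies at positions 11546 to 11612 of chromosome MT (RefSeq, GRCm38.p6, which is mm10) and is annotated as a tRNA gene. The most abundant fragments of the set are shown first, because they overlap and differ only in where they start and end. Sequences here and below run 5′ to 3′ as the deposited table gives them, with T for U, and in the interior fragments capitals mark the anticodon.
tRF-25:38-chrM.His-GTG: tagactGTGaatct
tRF-25:39-chrM.His-GTG: tagactGTGaatctg
tRF-25:40-chrM.His-GTG: tagactGTGaatctga
tRF-26:39-chrM.His-GTG: agactGTGaatctg
tRF-26:40-chrM.His-GTG: agactGTGaatctga
tRF-29:42-chrM.Gln-TTG: aattTTGaattctt

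The numbers in these names are the first and last base of the fragment, counted from 1 at the 5′ end of the tRNA. Positions 24 to 40 of mitochondrial tRNA-His formed the anticodon stem and loop, with 5 of 5 stem pairs, the loop at 29 to 35 and the anticodon at 31 to 33. The 5 tRF-2 of this tRNA thus started at base 25 or 26 and ended at base 38, 39 or 40, within the anticodon arm. The sixth tRF-2 came from mitochondrial tRNA-Gln (gene TrnQ, chromosome MT, 3772 to 3842), started at base 29 and ended at base 42, the last base of its anticodon stem. All 6 tRF-2 held the whole anticodon. The full mitochondrial tRNA-His, with CCA, is shown to place them, and its capitals mark the bases covered by the 5 fragments.
mt-His-GTG: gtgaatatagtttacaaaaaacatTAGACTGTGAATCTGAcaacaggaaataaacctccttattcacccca

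The 3 tiRNA-3 were also products of mitochondrial tRNA-His. They all started at base 32, inside the anticodon, and so overlapped the interior fragments instead of starting where those ended. In the next set capitals mark the terminal CCA.
tiRNA-3 of 40 bases: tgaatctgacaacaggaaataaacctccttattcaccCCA
tiRNA-3 of 39 bases: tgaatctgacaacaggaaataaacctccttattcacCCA
tiRNA-3 of 38 bases: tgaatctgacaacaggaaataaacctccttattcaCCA

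The 40-base fragment matched the tRNA in the deposited table to its end. The shorter fragments were listed as carrying a mismatch at their last base, written C39A and C38A when counted from 1 at the 5′ end of each fragment. Read with their CCA, they correspond to a tRNA of 67 and 66 bases before CCA, where the tRNA in the table has 68 and the RefSeq gene TrnH is 67 bases long. All 3 ended in CCA, which is added to a mitochondrial tRNA after transcription.

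Mitochondrial tRNA-Trp (gene TrnW, chromosome MT, 4950 to 5016) gave a pair of 3′ fragments that share an end and differ by 3 bases at the start, the longer typed as tRF-3b.
tRF-54:70-chrM.Trp-TCA: aagtttaacttctgCCA
tRF-51:70-chrM.Trp-TCA: cacaagtttaacttctgCCA

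The other 12 fragments came from nuclear tRNAs, and all were 3′ fragments of 17, 18 or 22 bases. They are shown by length to let their ends be compared.
tRF-59:75-Gln-CTG-2: tctcggtggaacctCCA
tRF-59:75-Gln-CTG-1-M7: tctcggtgggacctCCA
tRF-60:76-Tyr-GTA-1-M5: tccggctcgaaggaCCA
tRF-59:75-Cys-GCA-2-M4: tccgggtgccccctCCA
tRF-58:75-Gln-CTG-2: atctcggtggaacctCCA
tRF-58:75-Gln-CTG-1-M7: atctcggtgggacctCCA
tRF-59:76-Tyr-GTA-2-M2: ttccggctcgaaggaCCA
tRF-58:75-Ala-CGC-1-M4: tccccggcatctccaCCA
tRF-68:85-Leu-AAG-1-M4: atcccaccgctgccaCCA
tRF-69:86-Leu-CAA-1-M5: atcccacttctgacaCCA
tRF-54:75-Glu-TTC-1: tcgactcccggtgtgggaaCCA
tRF-53:74-Gly-CCC-2-M4: tcgattcccggccaatgcaCCA

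Their 5′ ends all lay in the T loop, the hairpin loop of 7 bases that the T stem closes. The 4 fragments of 17 bases started at T loop base 7, the 6 of 18 bases at base 6 and the 2 of 22 bases at base 2. The parent tRNAs of all 12 had 7 of 7 acceptor pairs, 5 of 5 T stem pairs and an A at T loop base 5. Of all 17 fragments of the 3′ types, 17 ended in CCA, 11 began with T, 5 with A, 1 with C and 0 with G. The tRNAs in the deposited table carry CCA, so the CCA ends may follow from how the 3′ types were assigned. The base content separated the sets: GC made up 14.29% to 42.86% of a mitochondrial fragment (median 38.46%) and 50.0% to 76.47% of a nuclear fragment (median 62.38%).

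The 2 glutamine sequences differed at 1 base, A11G in the 18-base and A10G in the 17-base fragments, counted from the 5′ end of the fragment with the Gln-CTG-2 base first. Short 3′ ends are shared between tRNA genes, and 9 of the 12 nuclear fragments had more than 1 parent tRNA listed, up to 7. In 6 of them the parents had more than 1 anticodon, as for the Gly-CCC fragment, which also fits Gly-GCC, so such a fragment cannot be assigned to a single gene.

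Interior and 3′ fragments were a small part of the tsRNAs. They made up 0.13157% to 0.31201% of the listed tsRNA reads in a library, or 865 to 1572 CPM in sum, CPM being the authors' counts scaled to a common number of mapped reads. Single counts ran from 1 to 2696, and 24 of 207 values were under 10 counts. The nuclear 3′ fragments had a median count of 17.5, at which counting alone gives a coefficient of variation of 23.9%. A floor of 3 counts corresponded to 1.12 to 3.36 CPM, and 2 values lay at or under it.

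A library of each group stood apart in its totals. Control 2, COPD model 3 and BMSC-treated 2 had 1452115, 893028 and 1071951 mapped reads, against 1757345 to 2679933 in the other 6. Listed tsRNAs made up 42.6% to 49.3% of the reads in these 3 and 58.6% to 70.6% in the others. Group comparisons that rest on COPD model 3 or BMSC-treated 2 are given with and without that library. The tissue label was checked in the separate mRNA libraries of the same groups. Surfactant protein C (Sftpc) had 614 to 3249 FPKM and the club cell protein Scgb1a1 6546 to 248461 FPKM. Of the genes of other tissues, albumin, a liver product, had 0.155 to 3.72 FPKM. The cardiac muscle gene Myh6 had 0.832 to 40.8 FPKM, with a median of 7.17 FPKM, and skeletal muscle Acta1 was not listed.

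Mitochondrial fragments held most of the reads. On average over the 9 libraries 85.6% ± 9.52 (SD, n = 9) of the reads of the 23 fragments were mitochondrial, and a single sequence, tRF-25:38-chrM.His-GTG, held 47.7% ± 12.8 (SD, n = 9). Its level in control 1, 2 and 3 was 535, 631 and 1006 CPM. In COPD model 1, 2 and 3 it was 588, 634 and 245 CPM, and in BMSC-treated 1, 2 and 3 it was 524, 469 and 490 CPM. COPD model 3 was the lowest of the 9 and control 3 the highest. All 3 BMSC-treated libraries lay below all 3 controls in CPM, by 535 against 524 at the nearest. On counts scaled by TMM (trimmed mean of M-values, a scaling to the bulk of the listed tsRNAs) the groups overlapped, with 849 to 1585 in control and 728 to 1168 in BMSC-treated libraries. In bulk tissue, fewer cells that hold an RNA and less of it per cell cannot be told apart.

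The ends of the mitochondrial tRNA-His interior fragments were uneven. Base 38 ended 76.9% ± 5.33 (SD, n = 9) of their reads, base 39 ended 10.3% ± 4.13 and base 40 ended 12.8% ± 2.29. Base 25 started 85.8% ± 3.52 of them. The share that ended at base 39 was 4.90% (95% Wilson interval 3.77% to 6.34%) in control 2, 5.80% (3.60% to 9.21%) in COPD model 3 and 6.89% (5.16% to 9.15%) in BMSC-treated 2. It was 8.15% to 15.9% in the other 6 libraries, so the 3 libraries of low total lay below all others, in every group. By group it was 8.09% ± 3.16 in control, 11.6% ± 5.18 in COPD model and 11.1% ± 4.52 in BMSC-treated libraries (SD, n = 3 each), with overlapping values. These intervals hold the error of counting reads and no other error, because reads carry no molecular identifiers.

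The next in abundance among the tRF-2 were tRF-26:40-chrM.His-GTG and tRF-26:39-chrM.His-GTG, which differ by the last base. The longer had 48.4, 53.7 and 54.5 CPM in control 1 to 3, 47.2, 60.8 and 29.1 CPM in COPD model 1 to 3 and 86.0, 45.7 and 42.7 CPM in BMSC-treated 1 to 3. The shorter had 53.4, 28.9 and 61.9 CPM in control, 63.7, 88.0 and 13.4 CPM in COPD model and 85.1, 30.8 and 41.5 CPM in BMSC-treated libraries. The groups overlapped for both, and the shorter was lowest in the library of lowest total in all 3 groups. tRF-25:40-chrM.His-GTG and tRF-25:39-chrM.His-GTG averaged 40.03 and 27.0 CPM over the 9 libraries. The mitochondrial tRNA-Gln fragment averaged 27.7 CPM and ran from 4.15 CPM in BMSC-treated 3 to 45.1 CPM in BMSC-treated 1, a span inside 1 group.

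Among the tiRNA-3 the full 40-base product prevailed. It held 78.1% ± 3.20 (SD, n = 9) of the tiRNA-3 reads and the 39-base product 14.4% ± 2.83. Over the 9 libraries the share of the longest ran from 71.4% to 82.0%. The level of the 40-base product was 62.9, 153 and 69.8 CPM in control 1 to 3, 82.5, 117 and 174 CPM in COPD model 1 to 3 and 77.5, 192 and 40.01 CPM in BMSC-treated 1 to 3. The library of lowest total was the highest in each group. The 39-base and 38-base products averaged 19.8 and 10.6 CPM and were also highest in those libraries.

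The balance of interior fragments and tiRNA-3 of this tRNA differed between libraries of a group. The tiRNA-3 made up 20.3% (95% Wilson interval 18.3% to 22.5%) of all mitochondrial tRNA-His reads in control 2, 42.9% (38.5% to 47.3%) in COPD model 3 and 29.5% (26.6% to 32.6%) in BMSC-treated 2. In the other 6 libraries this share was 7.22% to 14.0%. By group it was 12.7% ± 6.77 in control, 22.8% ± 17.4 in COPD model and 15.97% ± 11.9 in BMSC-treated libraries (SD, n = 3 each), and the groups overlapped.

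The mitochondrial tRNA-Trp fragments were the most abundant 3′ fragments after the 40-base tiRNA-3. The 17-base tRF-54:70-chrM.Trp-TCA had 43.4, 64.0 and 56.0 CPM in control 1 to 3, 51.2, 68.0 and 153 CPM in COPD model 1 to 3 and 34.3, 109 and 34.0 CPM in BMSC-treated 1 to 3. The 20-base tRF-51:70-chrM.Trp-TCA had 33.0, 53.7 and 36.2 CPM in control, 48.4, 65.9 and 31.4 CPM in COPD model and 27.3, 93.3 and 36.6 CPM in BMSC-treated libraries. COPD model 3 was thus the highest of the 9 for the shorter fragment and the lowest but BMSC-treated 1 for the longer. The 17-base fragment held 83.0% (95% Wilson interval 76.6% to 88.0%) of the pair's reads in that library and 48.1% to 60.7% in the other 8.

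Among nuclear 3′ fragments the glutamine sequences led. The 17-base tRF-59:75-Gln-CTG-2 had 16.7, 49.6 and 45.5 CPM in control 1 to 3, 27.9, 30.9 and 98.5 CPM in COPD model 1 to 3 and 18.8, 71.8 and 21.9 CPM in BMSC-treated 1 to 3. The 18-base tRF-58:75-Gln-CTG-2 had 14.0, 31.7 and 17.5 CPM in control, 9.10, 16.5 and 63.8 CPM in COPD model and 13.2, 32.7 and 18.1 CPM in BMSC-treated libraries. Both were highest in the library of lowest total in each group. The Gln-CTG-2 base was read in 81.7% ± 6.27 (SD, n = 9) of the glutamine 3′ reads, and the 17-base form held 63.5% ± 7.44 of the Gln-CTG-2 reads.

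The other glutamine sequence, Gln-CTG-1-M7, was rarer, with 11 to 48 reads per library for both lengths together. Its 17-base form held 44.5% ± 6.84 of these in control, 61.5% ± 6.52 in COPD model and 52.8% ± 7.47 in BMSC-treated libraries (SD, n = 3 each). COPD model libraries, at 54.2% to 66.7%, lay above controls, at 36.8% to 50.0%, but the intervals from counting overlapped, for example 40.3% to 67.4% in COPD model 3 and 31.4% to 68.6% in control 2. This share was singled out after its values were seen and was not tested.

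The 22-base fragments, the longest nuclear ones, came from Gly-CCC and Glu-TTC tRNAs. The Gly-CCC fragment had 13.6, 15.2 and 12.7 CPM in control 1 to 3, 6.83, 9.27 and 38.1 CPM in COPD model 1 to 3 and 5.64, 27.99 and 14.7 CPM in BMSC-treated 1 to 3. The Glu-TTC fragment had 13.6, 18.6 and 4.85 CPM in control, 6.83, 5.66 and 17.9 CPM in COPD model and 5.17, 27.99 and 1.13 CPM in BMSC-treated libraries. The groups overlapped for both, and the controls of the Gly-CCC fragment lay close together (13.8 ± 1.25 CPM, SD, n = 3). The remaining nuclear fragments, from Tyr, Leu, Ala, Cys and Gln tRNAs, averaged 7.22 to 13.9 CPM.

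The first comparison, COPD model against control, concerns cigarette smoke and injected smoke extract together. Of the 23 fragments 0 changed at an adjusted p under 0.05 (edgeR quasi-likelihood test, Benjamini-Hochberg adjustment over 191 tsRNAs), against a background of 0 of 191 (0.0%). At an unadjusted p under 0.05 it was 0 of 23 against 11 of 191 (5.76%), and groups did not overlap in CPM for 0 of 23 against 20 of 193 (10.4%). On TMM-scaled counts groups did not overlap for 1 of 23, against 26 of 193 (13.5%). It was tRF-54:70-chrM.Trp-TCA, the 17-base mitochondrial tRNA-Trp fragment, with 86.2 to 88.2 in control and 97.7, 117 and 233 in COPD model libraries. The log2 changes were above 0 for 18 of 23 (78.3%), against 57.6% of all tsRNAs tested. Their median was 0.50 where all tsRNAs had 0.21. Without COPD model 3 the log2 changes were above 0 for 10 of 23 (43.5%), against 58.1% of all tsRNAs. The medians were -0.10 and 0.08. The summed tRF-3a was then below control, at a log2 ratio of -0.24. Of the 23, 6 reached 20 CPM in COPD model 3 alone, as did 22 of all 193 listed tsRNAs. Every listed tsRNA reached that level in some library, so the high value of these 6 there is fixed by the listing. They include tRF-59:75-Gln-CTG-1-M7, tRF-58:75-Ala-CGC-1-M4 and tRF-60:76-Tyr-GTA-1-M5, which are named below. The count of 18 and the median of 0.50 include them.

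The smallest p in that comparison belonged to the 17-base tRF-59:75-Gln-CTG-1-M7. It had 3.17, 8.26 and 2.61 CPM in control 1 to 3 and 10.2, 3.60 and 29.1 CPM in COPD model 1 to 3, from 7 to 26 reads a library. The groups overlapped, with COPD model 3 far above the rest. Its log2 change was 1.67 with a standard error of 0.89 (edgeR adjusted p = 0.789). The change was 0.84 without COPD model 3 and 1.08 without control 3, but 2.14 without COPD model 2 and 2.12 without control 2. The 17-base mitochondrial tRNA-Trp fragment followed with a log2 change of 0.77 ± 0.60 (SE) and tRF-58:75-Ala-CGC-1-M4 with 0.90 ± 0.86 (SE), both at an edgeR adjusted p of 0.936. Without COPD model 3 these changes were 0.30 and 0.31. The Trp fragment reached 0.998 without COPD model 1, and the Ala fragment 1.35 without control 2. The Ala fragment had 1.81 to 11.7 CPM in control and 5.12 to 21.3 CPM in COPD model libraries, from 4 to 19 reads. The most abundant fragment, tRF-25:38-chrM.His-GTG, had a log2 change of -0.44 ± 0.59 (SE) (edgeR adjusted p = 0.936).

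The second comparison, BMSC-treated against COPD model, concerns what the cells changed in lungs of model mice. It uses the same COPD model libraries as the first, so a high value in COPD model 3 enters both with opposite sign. For the 6 fragments that reached 20 CPM in COPD model 3 alone, that high value is fixed by the listing. Of the 23 fragments 0 changed at an adjusted p under 0.05 by edgeR, against 0 of 191 (0.0%). At an unadjusted p under 0.05 it was 0 of 23 against 25 of 191 (13.1%), and 0 of 23 against 30 of 193 (15.5%) had groups that did not overlap in CPM. On TMM-scaled counts it was 0 of 23 against 24 of 193 (12.4%). The median log2 change was -0.21, with 9 of 23 above 0, where all tsRNAs had -0.10. Without COPD model 3 the median was 0.17, with 14 of 23 (60.9%) above 0, where all tsRNAs had -0.12, with 42.9% above 0.

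The smallest p again belonged to tRF-59:75-Gln-CTG-1-M7, which had 4.70, 14.9 and 3.02 CPM in BMSC-treated 1 to 3 and a log2 change of -0.84 ± 0.88 (SE) (edgeR adjusted p = 0.799). That change was -0.02 without COPD model 3 and -1.51 without BMSC-treated 2. tRF-60:76-Tyr-GTA-1-M5 had 4.55, 6.69 and 27.99 CPM in COPD model and 4.23, 11.2 and 4.15 CPM in BMSC-treated libraries. Its log2 change of -0.82 ± 0.86 (SE) had an edgeR adjusted p of 0.799, and without COPD model 3 the change was 0.17. The 17-base mitochondrial tRNA-Trp fragment had a log2 change of -0.52 ± 0.59 (SE) (edgeR adjusted p = 0.819), which was -0.05 without COPD model 3 and -1.05 without BMSC-treated 2. These 3 fragments were each highest in COPD model 3 of all 9 libraries.

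The third comparison, BMSC-treated against control, sets treated model mice beside control mice. Of the 23 fragments 0 changed at an adjusted p under 0.05 by edgeR, against 0 of 191 (0.0%), and 0 of 23 had an unadjusted p under 0.05, against 7 of 191 (3.66%). Groups did not overlap in CPM for 1 of 23, tRF-25:38-chrM.His-GTG, against 10 of 193 (5.18%). On TMM-scaled counts it was 0 of 23 against 14 of 193 (7.25%). That fragment had 494 ± 27.4 CPM in BMSC-treated and 724 ± 249 CPM in control libraries (SD, n = 3 each), and its log2 change on TMM-scaled counts was -0.30 ± 0.59 (SE) with an edgeR adjusted p of 0.986. The log2 changes of the fragments were above 0 for 18 of 23 (78.3%), against 56.0% of all tsRNAs tested. Their median was 0.26, where all tsRNAs had 0.09. Without BMSC-treated 2 the log2 changes were above 0 for 11 of 23 (47.8%), against 50.0% of all tsRNAs. The medians were -0.03 and -0.01.

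The fragments of smallest p in this comparison were tRF-59:75-Gln-CTG-1-M7, with a log2 change of 0.83 ± 0.90 (SE), the 20-base mitochondrial tRNA-Trp fragment, with 0.52 ± 0.60 (SE), and tRF-68:85-Leu-AAG-1-M4, with 0.52 ± 0.75 (SE). Their edgeR adjusted p was 0.986 in each case. Without BMSC-treated 2 the log2 changes were 0.16, 0.07 and 0.60 in the same order, and without control 2 they were 1.27, 0.61 and 1.06. The Leu-AAG fragment had 5.43, 21.3 and 8.21 CPM in control and 9.87, 14.0 and 14.7 CPM in BMSC-treated libraries, so the groups overlapped. Over the 23 fragments the standard errors of the log2 changes ran from 0.59 to 0.96 in this comparison.

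Summed by type, the fragments showed no separation of the groups either. The tRF-2 summed to 922 ± 288 CPM in control, 682 ± 308 in COPD model and 699 ± 115 in BMSC-treated libraries (SD, n = 3 each). In the same order tRF-3a summed to 177 ± 71.8, 279 ± 224 and 185 ± 119 CPM, tRF-3b to 67.1 ± 17.9, 76.7 ± 13.1 and 79.9 ± 60.5 CPM, and tiRNA-3 to 124 ± 61.0, 160 ± 65.4 and 131 ± 101 CPM. The spread within a group exceeded or came near the differences between group means, and the values of the groups overlapped for all 4 types. With 1 library left out, 9 of the 12 ratios of group means changed direction. Without COPD model 3 the mean tRF-3a sum of BMSC-treated libraries went from 0.662 to 1.23 times that of the COPD model. Without BMSC-treated 2 it went from 1.05 to 0.657 times that of control, and the tiRNA-3 sum went from 1.06 to 0.600 times control and from 0.818 to 0.465 times the COPD model. In COPD model 3 the tRF-2 sum was 329 CPM, the lowest of the 9 libraries, while its tRF-3a sum was 537 CPM, the highest.

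A further pattern lay between libraries of the same group. In control 2, COPD model 3 and BMSC-treated 2, the nuclear 3′ fragments had 2.45 to 4.77 times their mean CPM in the other 6 libraries (median 2.96), the mitochondrial 3′ fragments a median of 2.28 times and the tRF-2 a median of 0.646 times. With TMM scaling these medians were 2.35, 1.84 and 0.505. Over the other listed tsRNAs the median was 0.954 for 5′ fragments and 3.46 for tRF-1. These 3 libraries were also those in which listed tsRNAs took the smallest share of reads, and the part of depth or library composition in the pattern was not tested.

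The list itself bears on this pattern. Every one of the 193 listed tsRNAs reached at least 20 CPM in some library, and a fragment under that level everywhere would not be seen. Of the 12 nuclear fragments, 7 reached 20 CPM in 1 library, which was COPD model 3 for 6 of them. Over all 193 listed tsRNAs, 33 reached it in 1 library, which was COPD model 3 for 22 of them. Of the 12 nuclear fragments, 11 reached it in no library outside control 2, COPD model 3 and BMSC-treated 2. For such fragments a high value in those libraries is fixed by the listing. Within the controls, control 2 was the highest for 6 of the 6 fragments that reached 20 CPM in COPD model 3 alone. Within the BMSC-treated libraries BMSC-treated 2 was the highest for 6 of the 6. These 6 include the 17-base and 18-base forms of Gln-CTG-1-M7, so they are not independent. The same counts were not made for the 22 of all 193 listed tsRNAs, so these 6 have no background to be set against. The library of lowest total was highest in all 3 groups for 11 of 12 nuclear 3′ fragments and for 64 of 193 listed tsRNAs (33.2%). It was so for 24 of 27 tRF-1 (88.9%) and 25 of 143 5′ fragments (17.5%). The part of the listing in this was not tested. The 17-base tRF-59:75-Gln-CTG-2 reached 20 CPM in 7 libraries and had 73.3 CPM on average in the 3 libraries and 27.0 CPM in the other 6.

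Other fragments of the same tRNAs were set beside these. Of the 23 fragments' 16 parents, mitochondrial tRNA-His, both nuclear tRNA-Gln and tRNA-Tyr had 0 other listed tsRNAs, so all listed fragments of mitochondrial tRNA-His were interior or 3′ fragments. The remaining parents had 60 listed 5′ fragments or trailers, of which 59 were tested and 0 rose or fell at an edgeR adjusted p under 0.05 in any of the 3 comparisons. At an unadjusted p under 0.05 there were 2, 7 and 4 in the order of the comparisons above. The levels were far apart for glycine tRNA: the 5′ fragment tRF-1:32-Gly-GCC-2-M3 averaged 232598 CPM where the 3′ fragment shared by Gly-CCC and Gly-GCC averaged 15.99 CPM. For Glu-TTC, tiRNA-1:34-Glu-TTC-3 averaged 2091 CPM against 11.3 CPM for the 3′ fragment. For mitochondrial tRNA-Gln, the 5′ fragment tRF-1:15-chrM.Gln-TTG averaged 185 CPM against 27.7 CPM for the interior fragment. Not all parents were alike in this. The Leu-CAA 5′ fragment, at 13.8 CPM, was near the 9.67 CPM of its 3′ fragment. Mitochondrial tRNA-Trp went the other way, with 27.5 CPM for its 1 trailer against 115 CPM summed over its 3′ fragments.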

How the data were processed

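Counts and CPM of tsRNAs were deposited by the authors for 9 lung libraries. Per the file headers the count table is raw reads, and per the file headers the CPM table scales them to mapped reads. The authors' FPKM table of mRNA from 9 further libraries served only to check the tissue. Per the labels' protocols, RNA was pretreated to remove modifications that interfere with small RNA libraries. Bowtie, StringTie, cutadapt and FastQC with the build mm10 are named in the submitters' processing notes. Not given in the sources used here are their versions, their roles, the mismatches allowed and how reads shared by several tRNAs were counted. Differences between fragments in ligation or in removal of modifications affect levels set across fragments.

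Library totals were computed as deposited counts over CPM (893028 to 2679933 reads), and 0 pairs of libraries held identical counts. All 9 libraries entered 1 edgeR 4.0.16 quasi-likelihood fit in R 4.3.3 (TMM, filterByExpr, 191 of 193 tsRNAs, 6 residual degrees of freedom, common biological coefficient of variation 0.545), with p-values adjusted over all 191 and a threshold of 0.05. The fit was run on simulated data that held large changes or none. That run cannot show whether changes of the size seen here would be called. CPM values are given as mean ± SD, and shares with 95% Wilson intervals. Standard errors of edgeR log2 changes are approximate. Each was computed as the absolute log2 change over the square root of the quasi-likelihood F statistic. Other calculations used Python 3.11.15, pandas 2.3.3, numpy 2.4.6 and scipy 1.17.1. Members and lists were chosen with earlier results of these data known. Fragments were named by rule: any called, the 3 of highest mean CPM in each type, and the 3 of smallest p in each comparison, with the most abundant other fragment of a parent. Stem pairs were counted on the tRNA sequences of the table, and mitochondrial gene positions are from RefSeq (GRCm38.p6).

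Groups share replicate numbers. Deviations from the group means of same-numbered libraries correlated at 0.717, 0.738 and 0.203 for control and BMSC-treated libraries, all over 0.1. The 0.738 joins control 2 and BMSC-treated 2, both of low total. For different numbers in these groups the values were -0.775, 0.581, -0.676, -0.561, 0.229 and -0.256. A positive value was thus not limited to shared numbers, and the number as a block was run as an alternative only. Over all 9 same-numbered pairs, 5 were over 0.1, with a range of -0.598 to 0.738. The labels do not say what a number shares. Alternatives were DESeq2 1.42.0, RLE factors, library totals as sizes, no filter, a 1.5-fold minimum, 2 groups only, the block, TMM-scaled sums, and each library left out.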

Additional observations from a re-analysis of the deposited data

How the results depend on the processing

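The number of interior and 3′ fragments that passed the test was 0 in all 3 comparisons under each of the 17 other settings run, and the smallest adjusted p of any of them over these settings was 0.348. Unadjusted edgeR p under 0.05 occurred for 1 of 23 in COPD model against control without COPD model 2, against 14 of 192 tsRNAs. Without control 2 it was 1 of 23 against 14 of 191. In BMSC-treated against control without the lowest-total library of each group it was 1 of 22 against 20 of 184. With the replicate number as a block it was also 0 of 23 in each comparison, and the block changed no call of a fragment. Over all listed tsRNAs the block gave 1 call for COPD model against control, 3 for treated against COPD model and 0 for treated against control, where the fit without it gave 0. In the same order DESeq2 gave 2, 1 and 1. For BMSC-treated against COPD model, RLE factors gave 5, library totals 2 and the fit on 2 groups 3. With 1 library left out the counts over all tsRNAs ran from 0 to 3, 0 to 6 and 0 to 1. The 9 named log2 changes had the sign of the full fit in 143 of 144 refits, but 4 of 9 moved by over 1.5-fold when 1 library was left out, some to near 0, as the report gives for COPD model 3 and BMSC-treated 2. The exception in sign was tRF-60:76-Tyr-GTA-1-M5 in BMSC-treated against COPD model, at 0.17 without COPD model 3, and with any 1 library left out it ran from -1.19 to 0.17. Of the 12 ratios of summed types, 9 changed direction with 1 library left out, and 3 moved by more than the spread within groups. On the log2 scale tRF-3a in COPD model against control was -0.24 without COPD model 3, and without BMSC-treated 2 tRF-3b was -0.76 against COPD model and -0.57 against control. Leaving out the library of lowest total in every group was a setting chosen after seeing the data. It left 22 fragments tested, of which 11, 9 and 13 were above 0 in the 3 comparisons. These were 50.0%, 40.9% and 59.1%, against 47.3%, 46.2% and 54.3% of all tsRNAs tested. That setting called 0 fragments and gave 3 calls over all tsRNAs in BMSC-treated against control. Scaling moved the median log2 change of all tsRNAs: in COPD model against control it was 0.21 with TMM and 0.02 with RLE factors. Of the fragments 18 of 23 were above 0 under both, against 57.6% and 50.8% of all tsRNAs. With library totals the median of all tsRNAs was -0.27 in treated against COPD model and -0.13 in treated against control. Above 0 were 6 of 23 fragments (26.1%) against 37.7% of all tsRNAs, and 15 of 23 (65.2%) against 42.9%. Without control 3 the medians of the fragments were 0.06 against control in both comparisons, with 14 and 13 of 23 above 0. All tsRNAs then had medians of -0.11 and -0.05, with 42.7% and 44.3% above 0. On TMM-scaled counts in place of CPM, also chosen after seeing the data, 1, 0 and 0 fragments had groups that did not overlap, where CPM gave 0, 0 and 1. The causes were not tested.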
